A study of Macaca mulatta with 24 samples.

Results

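Colon tissue taken 7 days after a total-body dose of 6.7 Gy was set against unirradiated colon, 4 arrays against 4, which makes 8 of the 24 samples of the series. The samples were chosen by their titles, and each array holds the RNA of 1 rhesus macaque. All were young adult males, the gamma rays came from a cobalt-60 source, the controls were handled without being irradiated, and RNA was drawn from a full-thickness piece of colon with no animals pooled. The controls are labelled day 4 and are the only unirradiated colon in the series, so they also served every other day and dose. Where other groups are used, they are the 4 animals at day 4 after 6.7 Gy, the 2 at day 12 after 6.7 Gy and the 4 at day 7 after 7.4 Gy. The day 12 label follows the sample titles, since the protocol text names another last day.

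Radiation kills dividing cells of the intestinal crypt and of the bone marrow, and resting lymphocytes are among the most sensitive cells of the body. DNA breaks stabilise p53, which switches on genes that halt the cell cycle, repair DNA or drive cell death. The crypt then divides to rebuild the epithelium while the mucosa, whose barrier may be open, makes chemokines and antimicrobial proteins. In bulk tissue, fewer cells of a type and less RNA per cell cannot be told apart.

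Levels are log2 signals minus the 75th percentile of the same array, so a level of 0 lies at that percentile, and changes are log2 differences between group means. All 11 tested markers of colon epithelium were well above background on all 8 arrays, and their median change was 0.06. The share of probes well above background was 70.3% to 82.6% on the day 7 arrays and 70.4% to 79.95% on the control arrays (exact two-sided permutation test, p = 0.74, where 4 against 4 cannot go below 0.029). Arrays correlated at 0.971 to 0.980 within the controls, at 0.977 to 0.986 within day 7 and at 0.966 to 0.978 between the groups.

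Of 35711 probes tested, 135 (0.378%) passed an adjusted p of 0.05 with at least a 2-fold change, 43 of them higher at day 7 (0.12%) and 92 lower (0.258%). Higher calls made up 54 of 128 when arrays were scaled to their median and 20 of 41 when scaled to the spike-in probes. At an unadjusted p under 0.05 with the same fold, 802 probes passed. The share of all genes at that p without a fold threshold was not counted. List counts at an unadjusted p, given below, therefore have no base to be set against. With 1 probe per gene symbol, 56 of 12832 genes were called (0.436%), 22 higher (0.171%) and 34 lower (0.265%). The ranges of the groups did not overlap for 8.44% of all genes tested. Each control shared a slide with the day 7 array of the same number. In both groups, replicates 1 and 2 were scanned on scan day 1 and replicates 3 and 4 on scan day 2. With scan day as a block, 98 probes were called. With the slide as a block in the fit of all 24 arrays, 60 probes were called, and with the replicate number as a block in the 2 groups alone, none was. Leaving out 1 array gave 219, 27, 77 and 41 calls without control replicates 1 to 4, and 25, 153, 31 and 30 without day 7 replicates 1 to 4. Array position on the slide was the same for all controls and differed from that of all day 7 arrays, and position and group cannot be told apart.

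The largest fall of any called gene was that of HBB. It encodes the beta chain of haemoglobin, and its levels were 2.44, 2.17, 3.25 and 3.38 in the controls against -3.20, -3.90, -2.93 and -4.98 at day 7. The change was -6.56 (SE 0.64, adjusted p = 2.3e-05), or 94.7-fold. The lowest control lay far above the highest day 7 array. A second HBB probe was above background on all 4 controls and on 0 day 7 arrays, and was at least 57.1-fold lower. For HBA2, the alpha chain, the brightest probe changed by -0.49 and was not called, whereas another probe, noticed after the values were seen, fell by 4.15 on the log2 scale (SE 0.34, adjusted p = 3.4e-06). The control levels of that probe were 2.03, 1.46, 2.98 and 2.95, and its day 7 levels were -1.68, -1.65, -1.70 and -2.16. The other red-cell genes were less uniform. Of the 10 tested members of the list, HBB alone was called, and the median of the list was -0.30. ALAS2, which starts haem synthesis in red-cell precursors, was above background on 3 controls and on 0 day 7 arrays, and was at least 1.51-fold lower, which was not called. The part of blood content in the tissue was not tested.

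SERPINA2, a gene related to alpha-1 antitrypsin, had control levels of 0.65, 0.65, 1.80 and 1.84 and day 7 levels of -1.59, -1.72, -1.84 and -1.97. Its change was -3.01 (SE 0.27, adjusted p = 1.1e-05). The 4 day 7 animals lay within a narrow range, and the controls formed a lower and a higher pair. The lower pair, control replicates 1 and 2, was scanned on scan day 1 and the higher pair on scan day 2. The control levels of HBB and of the called HBA2 probe split the same way. SERPINA2 and HBB kept their calls with scan day as a block. What divides the pairs was not tested.

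T lymphocyte genes had the lowest median of the 39 lists. Of 25 tested members, 3 fell past both thresholds, none rose past them, and the median change was -1.03, beside -0.02 over all 12832 genes. With genes that no array of a group measured set to their bounds, this median was -0.99, and no list's median moved by more than 0.174. CD27, a co-stimulatory receptor, had levels of 0.43, 1.59, 1.16 and 2.28 in the controls and -0.39, 0.17, -0.14 and -0.66 at day 7. It fell by 1.63 on the log2 scale (SE 0.32, adjusted p = 0.028). THEMIS, which is needed for thymic selection of T cells, fell by 1.56 (SE 0.26, adjusted p = 0.012), and CD96, a receptor of T and NK cells, fell by 1.70 (SE 0.33, adjusted p = 0.029), with 1 day 7 array above background. The ranges did not overlap for these 3 genes, as for 130 of the 135 called probes. A further THEMIS probe changed by -1.76 (adjusted p = 0.11) and was not called. For CD2 and LCK, which were not called by their brightest probes, a further probe fell, by 1.59 (adjusted p = 0.039, ranges overlapping) and 1.42 (adjusted p = 0.043). The T cell receptor subunit CD3E changed by -1.51 with an adjusted p of 0.053, and its ranges overlapped because control replicate 1 was at -0.35 while the other controls were between 0.93 and 1.17. CD8A (-1.31), CD3D (-1.03) and CD4 (-0.60) had the same sign without being called. FOXP3, the factor of regulatory T cells, was above background on 0 controls and 2 day 7 arrays and was not called.

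Many probes for the T cell receptor carry no gene symbol, and those whose deposited description names a receptor chain were collected after their values were seen. For the beta chain, 40 of 41 tested probes were lower, 7 were called and the median change was -1.23. For the alpha chain, 27 of 29 were lower, 1 was called and the median was -0.62. These probes match related sequences, so they are not separate genes.

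**Figure D1:**
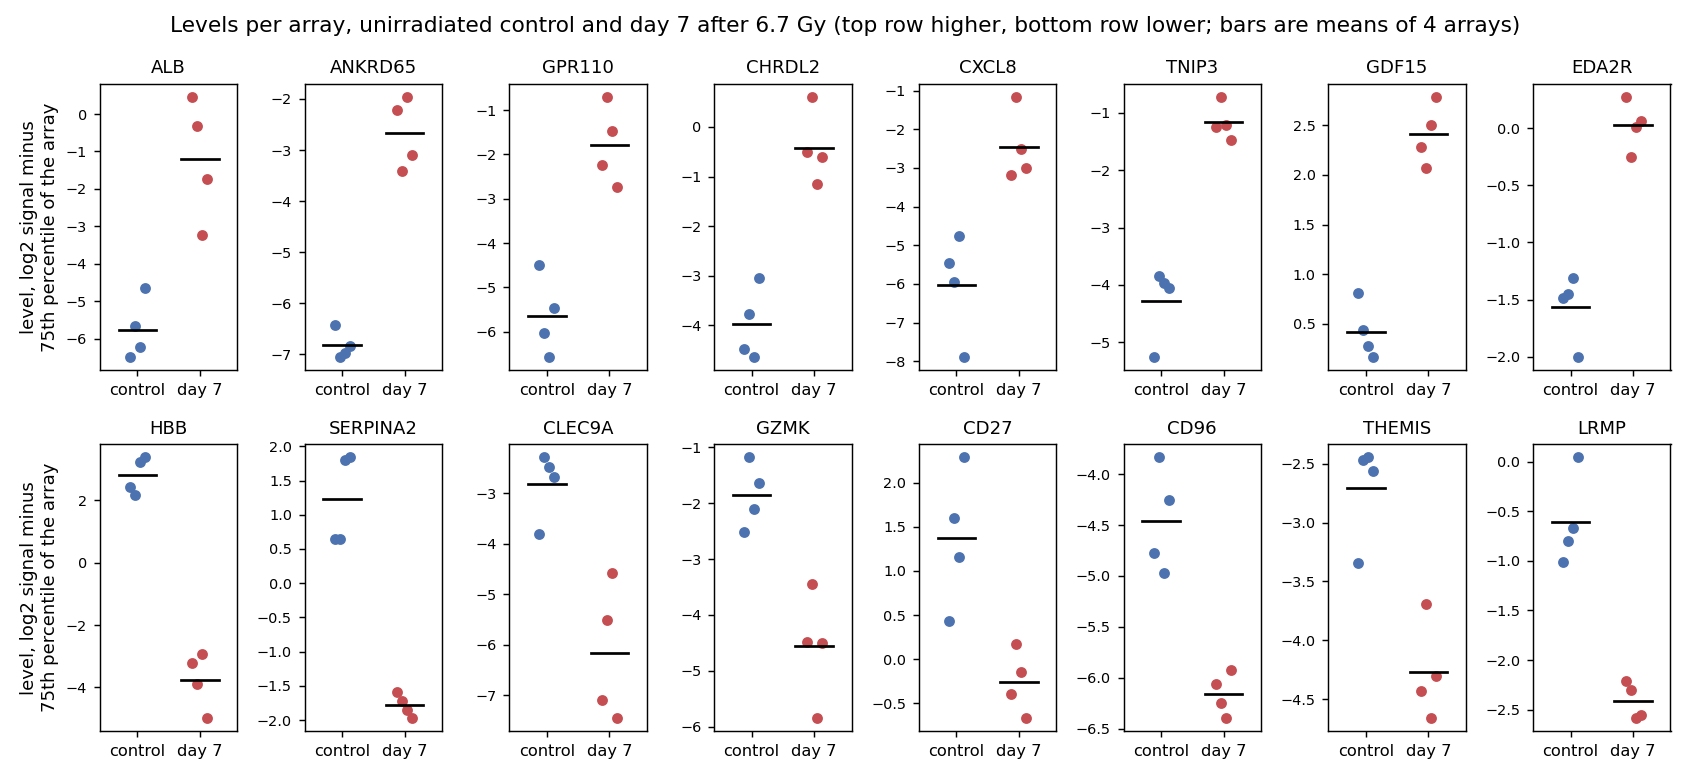
Level of 16 named genes on each array (y axis, log2 signal minus the 75th percentile of the array, with its own scale per gene) in the 4 control and the 4 day 7 animals; points are animals and bars are group means. All but THEMIS, a called list member, were picked as called genes whose groups do not overlap. The lack of overlap in the 16 is therefore given by that choice for all but THEMIS. The widest gap is that of HBB.

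The list of cytotoxic granule and NK genes had 17 tested members, of which 2 were called lower and none higher, and its median was -0.95. GZMK, a granzyme of memory T cells, was at -2.52, -1.18, -2.10 and -1.64 in the controls and at -4.48, -3.44, -5.85 and -4.50 at day 7, a fall of 2.71 (SE 0.57, adjusted p = 0.040). CST7, an inhibitor of granule proteases, fell by 1.64 (SE 0.31, adjusted p = 0.023). The brightest probe of the chemokine CCL5 changed by -1.89 and was not called, while both of its further probes that were called fell, by 2.13 and 1.97. A further probe of KLRC3, not called by its brightest, was above background on 3 controls and 0 day 7 arrays. It was at least 3.29-fold lower (adjusted p = 0.039). NKG7 (-0.14) and PRF1 (-0.51), which also serve cell killing, were not called. Among genes outside the lists, CRTAM, a receptor of activated cytotoxic cells, was above background on 3 controls and on 0 day 7 arrays and was at least 2.08-fold lower (adjusted p = 0.019). KIR1D changed by -1.64 and KIR3DL2 by -1.63, and both were called, but both calls were lost with the slide as a block. A further KIR1D probe, above background on all 8 arrays, changed by -0.61 (adjusted p = 0.46) and was not called. Killer-cell receptor genes are near-identical to each other, and which of them these probes read is uncertain. In the list of lymphocyte homing and lymphoid chemokine genes, 1 of 12 tested members was called, and the median was -0.40. The called member, CXCR6, a homing receptor of tissue T cells, fell by 1.62 (SE 0.33, adjusted p = 0.037) by its brightest probe. Its other probe, above background on all 8 arrays, changed by -0.77 (adjusted p = 0.39) and was not called. With the slide as a block, 13 of the 34 named genes called against control lost the call. CXCR6, GZMK, CD27 and GDF15 were among them.

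None of the 20 tested B lymphocyte genes was called, although 9 had an unadjusted p under 0.05, and the median was -0.82. RGS13, a germinal-centre regulator, differed by -3.01, with an adjusted p of 0.11 and overlapping ranges. Outside the list, 2 B cell genes among the lowest called genes were FCMR, the receptor for IgM, and TLR10. FCMR changed by -1.93 (SE 0.40, adjusted p = 0.039). TLR10 changed by -2.08 (SE 0.42, adjusted p = 0.036) and was above background on 2 day 7 arrays. Both lost the call with the slide as a block. With each array left out in turn, FCMR lost it in 7 fits and TLR10 in 5. LRMP, a membrane protein of lymphocytes, was at -1.01, -0.80, -0.66 and 0.04 in the controls and at -2.21, -2.30, -2.58 and -2.55 at day 7, and it fell by 1.80 (SE 0.28, adjusted p = 0.0065). The 12 plasma cell genes had a median of -0.56 and none was called, with 3 at an unadjusted p under 0.05.

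Of 13 dendritic cell genes, CLEC9A was called. It is a receptor for dead cells on cross-presenting dendritic cells. Its levels were -3.80, -2.29, -2.48 and -2.68 in the controls and -7.10, -5.52, -4.58 and -7.45 at day 7. It fell by 3.35 (SE 0.68, adjusted p = 0.036), and 1 day 7 array was above background. XCR1 (-0.81) and BATF3 (-0.21), markers of the same cell, were not called. In antigen presentation, MAMU-DQA1 fell by 1.29 (SE 0.29, adjusted p = 0.049), with 1 of 19 members called. A further MAMU-DQA1 probe, at -1.28, had an adjusted p of 0.056. The adipocyte list had 1 of 8 called, THRSP, at least 2.52-fold lower and above background on 0 day 7 arrays.

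Among p53 target genes, 4 were called, all higher at day 7. Of the 21 tested none was called lower, and the median was 0.48 with 18 of 21 above 0. GDF15, a stress cytokine, was at 0.81, 0.44, 0.27 and 0.16 in the controls and at 2.28, 2.07, 2.50 and 2.79 at day 7, a rise of 1.99 (SE 0.40, adjusted p = 0.036). EDA2R, a death receptor of the TNF receptor family, was at -1.49, -1.45, -1.31 and -2.003 against 0.27, -0.25, 0.01 and 0.07, and rose by 1.59 (SE 0.24, adjusted p = 0.0056). Its groups were separated by more than the range of either. The RNA-binding protein ZMAT3 rose by 1.15 (SE 0.15, adjusted p = 0.0015) and the DNA repair gene DDB2 by 1.08 (SE 0.17, adjusted p = 0.0099). CDKN1A, which stops the cell cycle, was at 0.39 with overlapping ranges, and its day 7 mean rests on 3 arrays because 1 spot was an outlier. MDM2, which degrades p53, was at 0.20 and its adjusted p was 0.72. A further MDM2 probe, above background on all arrays of both groups, was at 0.60 (adjusted p = 0.36) and was not called.

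**Figure D2:**
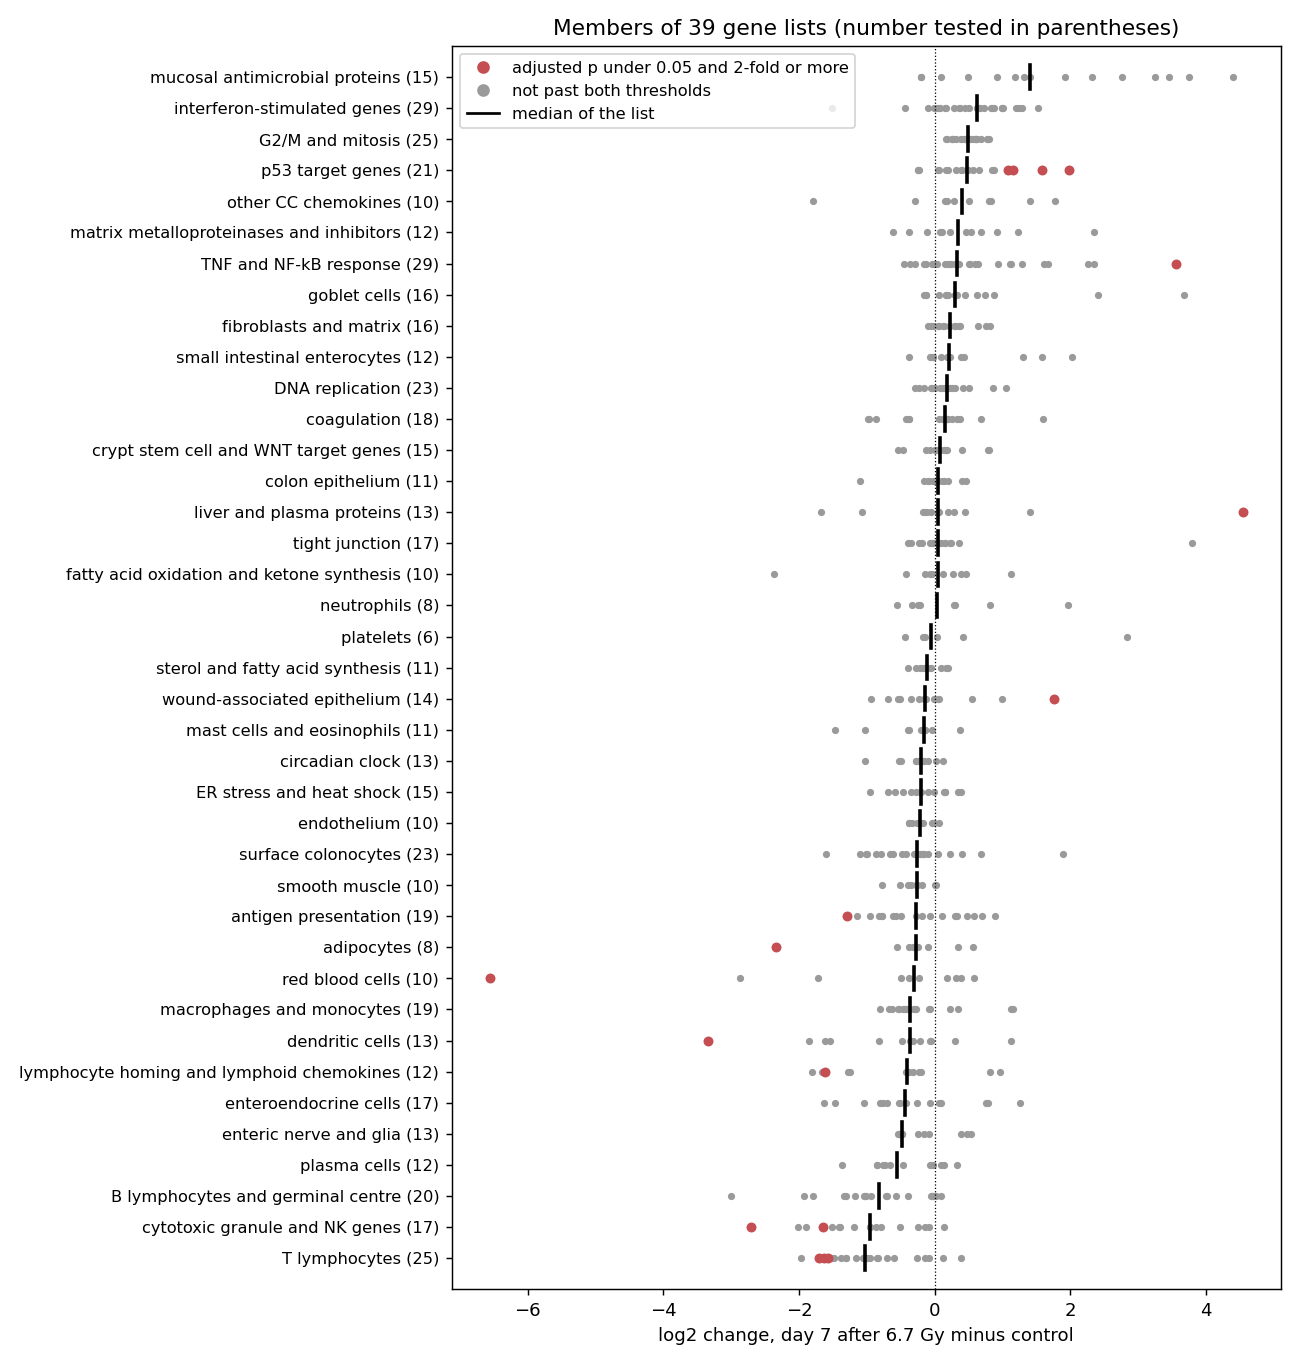
Log2 change from control to day 7 (x axis) for every tested member of 39 gene lists (y axis, number tested in parentheses); red points passed both thresholds, grey points did not, and black bars are list medians. The T lymphocyte list has the lowest median, -1.03, and the mucosal antimicrobial list the highest, 1.40, although none of the latter's members was called by its brightest probe.

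Mucosal antimicrobial genes had the highest median of any list, 1.40, with 13 of 15 members above 0 and 12 at an unadjusted p under 0.05, yet none was called by its brightest probe. LCN15, a lipocalin, changed by 3.26 (adjusted p = 0.055) and was above background on 1 control and on 4 day 7 arrays. LCN2, the lipocalin that binds bacterial siderophores, differed between its probes. The brighter changed by 1.19 (adjusted p = 0.32) and the other by 4.10 (SE 0.77, adjusted p = 0.023), from -3.21, -2.86, -3.05 and -1.42 to 0.25, 2.67, 1.67 and 1.29. PLA2G2A, a bactericidal phospholipase, was at 1.93, and PI3, a protease inhibitor of epithelium, at 2.32, neither called.

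In the TNF and NF-kB list 1 of 29 genes was called. CXCL8, which draws neutrophils, was at -5.46, -5.95, -4.77 and -7.89 in the controls and at -3.17, -1.16, -2.51 and -3.002 at day 7. It rose by 3.56 (SE 0.76, adjusted p = 0.043) and was above background on 1 control. Its 2 further probes, above background on 3 and 2 controls, changed by 2.03 (adjusted p = 0.13) and 1.59 (adjusted p = 0.34) and were not called. TNF itself was at 0.03 with overlapping ranges. CCL2 (1.29) and CCL20 (1.62), which draw monocytes and lymphocytes, had ranges that did not overlap but were not called. TNIP3, an inhibitor of NF-kB signalling that was in no list, was at -5.26, -3.84, -3.96 and -4.05 against -1.24, -0.72, -1.21 and -1.47, and rose by 3.12 (SE 0.49, adjusted p = 0.0083). Of the neutrophil genes, none of 8 was called and the median was 0.04, with 0 at an unadjusted p under 0.05. The interferon list had a median of 0.62 with 25 of 29 above 0 and none called, 2 of them at an unadjusted p under 0.05.

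Several of the genes with the highest changes were near background in the controls. ALB, serum albumin, was at -6.49, -5.66, -6.21 and -4.66 in the controls and at 0.46, -0.33, -3.23 and -1.73 at day 7, a rise of 4.55 (SE 0.79, adjusted p = 0.018). It was above background on 1 control, and the day 7 animals covered a wider range than the controls. Its 2 further probes, above background on 0 controls, were at least 5.91-fold and 1.31-fold higher and were not called (adjusted p = 0.051 and 0.56). The other 12 liver and plasma genes were not called, and the median of the list was 0.05. ANKRD65, an ankyrin repeat gene, was above background on 0 controls and 4 day 7 arrays and was at least 7.83-fold higher (adjusted p = 2.1e-05). GPR110, an adhesion receptor, rose by 3.85 (SE 0.73, adjusted p = 0.023) and CHRDL2, an antagonist of bone morphogenetic proteins, by 3.56 (SE 0.64, adjusted p = 0.020). ANXA3, an annexin in the wound-associated epithelium list, rose by 1.76 (SE 0.32, adjusted p = 0.021), with 1 of 14 called, and its further probe was at 1.85 (adjusted p = 0.057). SCEL and PSD2 were above background on 0 controls and were at least 1.80-fold and 1.14-fold higher, PSD2 being measured on 2 day 7 arrays. C1H1orf100 (2.67), PLA1A (1.62), the protease PAPPA (1.49) and RAB3IP (1.24) complete the 15 highest genes without overlap, although a further RAB3IP probe was at 0.03 and was not called.

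None of the 25 tested mitosis genes was called, but all 25 were above 0, between 0.17 and 0.81, with a median of 0.50 and 9 at an unadjusted p under 0.05. DNA replication genes had a median of 0.19 and none of 23 was called, with 2 at an unadjusted p under 0.05; GINS1, of the replication helicase, was at 1.06. The crypt genes EPHB3 (0.80, adjusted p = 0.071) and SOX9 (0.78, adjusted p = 0.17) had ranges that did not overlap, while the stem cell marker LGR5 was at -0.47. A further SOX9 probe was at 0.05. In goblet cells TFF1, a mucus peptide, was at -1.50, -0.94, -2.33 and -1.33 against 2.45, 2.67, 2.33 and 1.19, a difference of 3.69 with an adjusted p of 0.088. CLDN2, a pore-forming claudin, stood apart in the tight junction list with 3.79 (adjusted p = 0.074), while the median of the 17 members was 0.05. PYY, a hormone of enteroendocrine cells, was at -1.63 (adjusted p = 0.063).

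**Figure D3:**
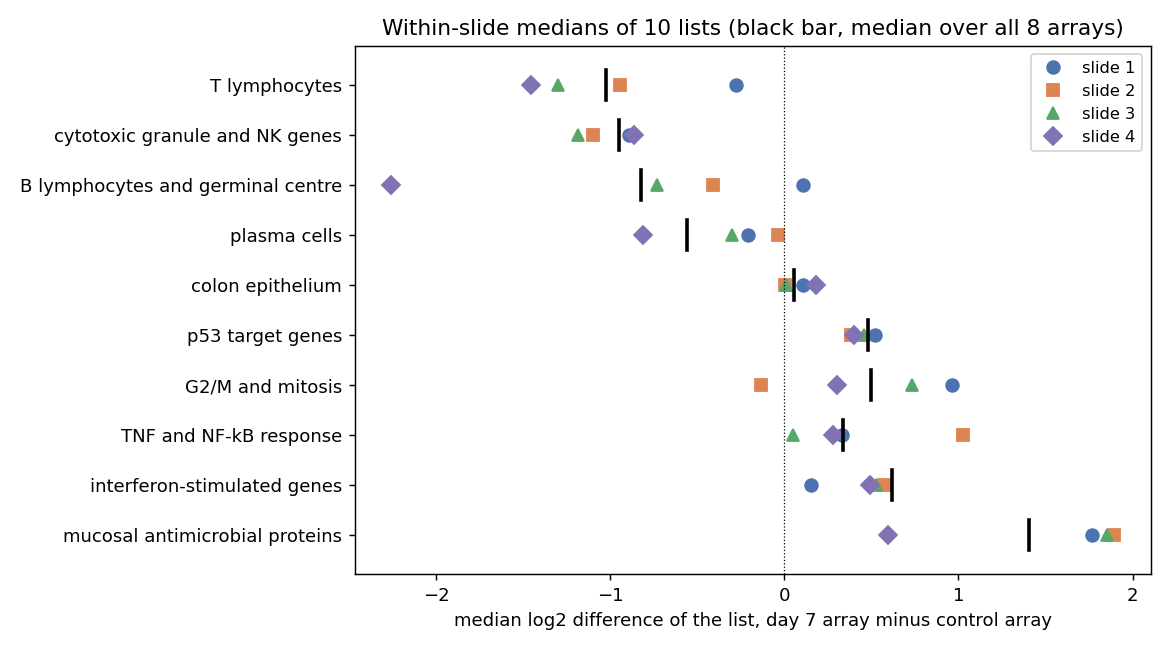
Median log2 difference of 10 gene lists (x axis) between the day 7 and the control array of each of the 4 slides (coloured symbols), with the median over all 8 arrays as a black bar. The T lymphocyte median was negative on every slide, from -0.28 on slide 1 to -1.46 on slide 4, and the p53 target median lay between 0.38 and 0.52.

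Within slides, the cytotoxic list had medians of -0.89, -1.10, -1.18 and -0.86. The B lymphocyte list was less even, at 0.11, -0.41, -0.73 and -2.26. The mitosis list was at 0.96, -0.13, 0.74 and 0.31, so its sign turned on slide 2, and the antimicrobial list was at 1.77, 1.90, 1.85 and 0.60.

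Day 7 was also set against day 4 at the same dose, using the same day 7 arrays. Of 35952 probes, 684 were called (1.9%), 403 higher at day 7 and 281 lower. Scaled to the spike-in probes instead, 706 were called and most were lower (471, against 235 higher), and with the slide as a block 51 were called. Only slides 1 and 2 held arrays of both days, so the slide block leaves less of this contrast than of that with the controls. By gene 170 of 12893 were higher at day 7 (1.32%) and 135 lower (1.05%). CA1, a carbonic anhydrase of surface colonocytes, was at 0.93 in the controls, -5.12 at day 4, -0.17 at day 7 and 1.22 at day 12, and was higher at day 7 than at day 4 by 4.95 (adjusted p = 0.0097). PCK1, a gluconeogenic enzyme, was at 3.81, -0.22, 3.64 and 4.46 in the same order, and GIP, an incretin hormone, at -2.85, -5.29, -2.09 and -1.91. IYD, an iodotyrosine deiodinase, was above background on 0 day 4 arrays and at least 9.003-fold higher at day 7. RNF152, a ubiquitin ligase, was higher by 2.97. Of 23 surface colonocyte genes, 8 were called higher than at day 4. Against control 0 were called, where only 0.436% of all genes were, so this count does not show a return to control levels. In that contrast 18 of the 23 were lower, with a median of -0.26. The ranges did not overlap for 6, beside 8.44% of all genes.

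GDF15 was at 5.08 at day 4 and 2.41 at day 7, lower by 2.67 (adjusted p = 0.0039). The growth factor EREG (-3.09), the nuclear receptor NR4A2 (-2.48) and LHFPL7 (-3.40) were also lower, and the neurotrophin BDNF, above background on 0 day 7 arrays, was at least 3.27-fold lower. In the TNF and NF-kB list 7 of 29 genes were called lower than at day 4. The T lymphocyte list had 6 genes called lower and 0 called higher. GZMK was at -2.30 at day 4 and -4.56 at day 7 (adjusted p = 0.030), and at -2.24 at day 12, where 2 animals were measured. CD27 was at 1.16 and -0.26 (adjusted p = 0.017). HBB was already at -3.13 at day 4 and SERPINA2 at -1.68, and neither differed from day 7 past the thresholds, with changes of -0.62 and -0.10. Of the 17 named genes called between these days, 16 lost the call with the slide as a block, PSD2 being the exception, and 16 with the replicate block. Same-numbered arrays of these days shared no slide, so the replicate block does not match slides here. Whether the losses stem from the slides was not tested. When each array was left out in turn, 5 kept it throughout (GDF15, PSD2, CA1, GIP and RNF152), while IYD lost it in all 8 such fits.

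**Figure D4:**
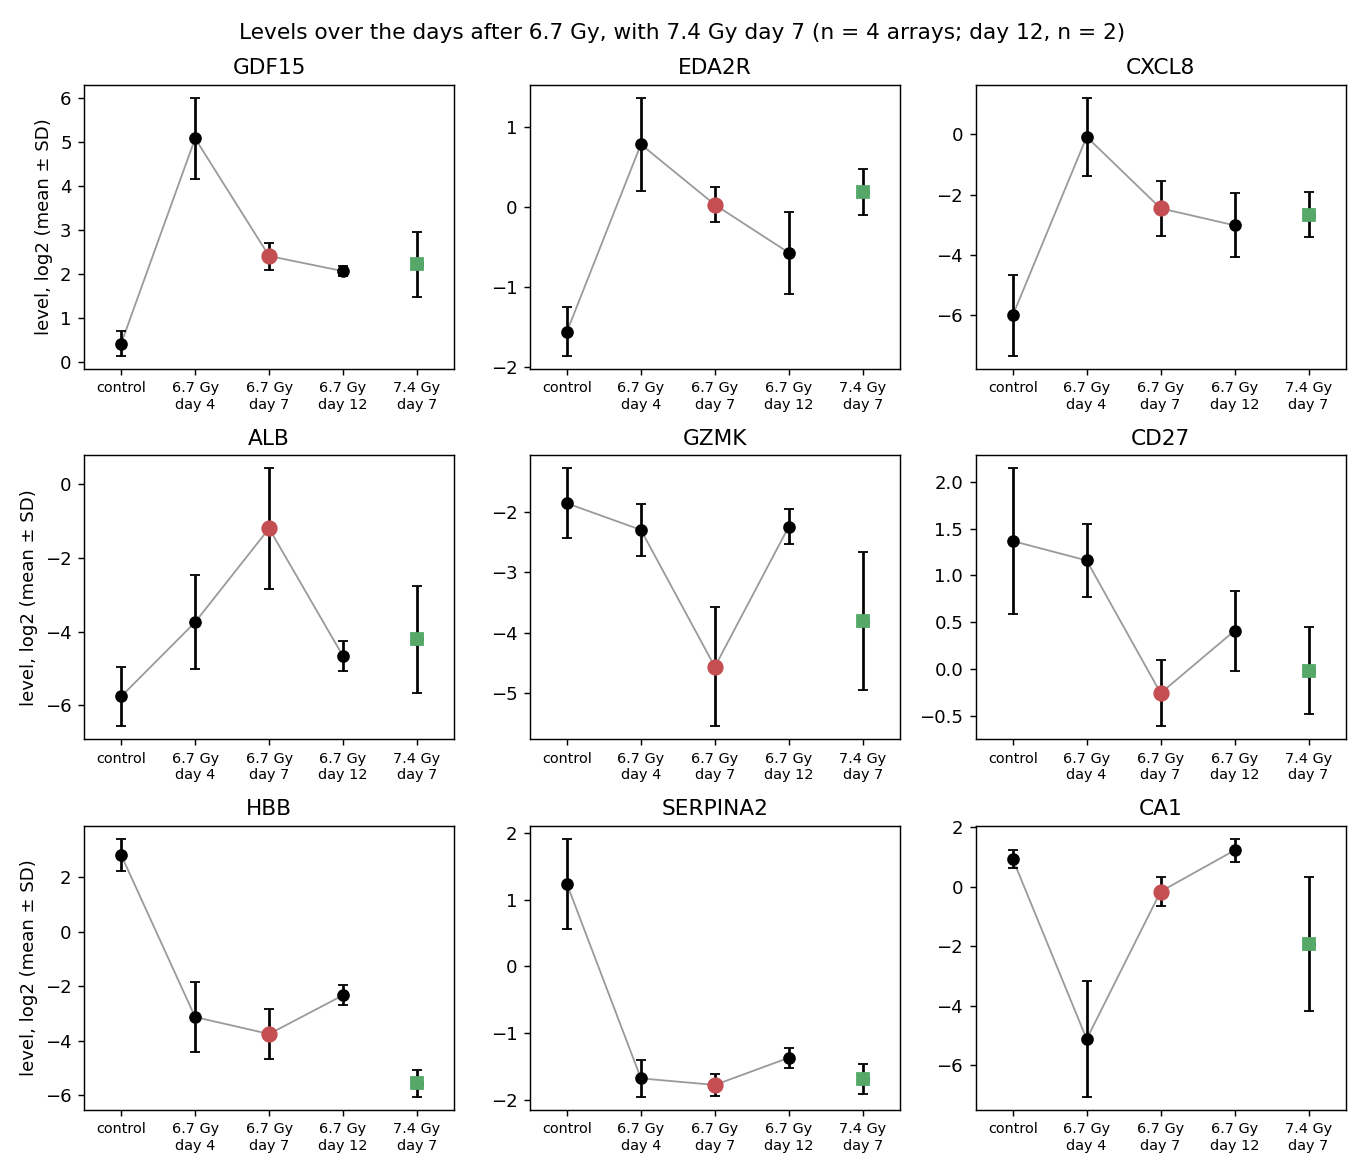
Group mean and SD of 9 genes (y axis, log2 level) in the controls, in the 3 groups that received 6.7 Gy and in the 7.4 Gy group of day 7 (x axis); n = 4 animals per group and 2 at day 12, with day 7 after 6.7 Gy in red and 7.4 Gy in green. HBB had means of -3.13 at day 4 and -3.76 at day 7, GDF15 had its highest mean at day 4, and GZMK and CD27 had their lowest at day 7.

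At day 7 the doses were compared directly. Of 35846 probes, none was called (0%) between 7.4 Gy and 6.7 Gy, while 143 passed an unadjusted p of 0.05 with a 2-fold change and the test named in the study's methods called 1 after adjustment. GDF15 was at 2.41 after 6.7 Gy and 2.22 after 7.4 Gy, and EDA2R at 0.02 and 0.18. ALB was at -1.21 after 6.7 Gy and -4.20 after 7.4 Gy, a difference of -2.998 that did not pass adjustment.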

How the data were processed

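Colon RNA from 24 rhesus macaques was hybridised to 1-colour Agilent arrays. Per the file headers, spot intensity was extracted with Feature Extraction 11.0.1.1, and the deposited files hold this background-subtracted intensity. The authors also deposited a log2 table scaled in GeneSpring to the 75th percentile of each array, used here as an alternative; its gene symbols named 18640 of 43603 probes, a RefSeq accession named 3268 and 21695 had a LOC name or none. No column was left unmapped.

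Processed signals were log2-transformed, the 75th percentile of each array was subtracted and outlier spots were left out. Probes well above background on 2 or more arrays of the groups compared were tested with limma 3.58.1 (R 4.3.3) in 1 fit of all 24 arrays with a mean per group. Calls needed a Benjamini-Hochberg adjusted p under 0.05 and a 2-fold change. The fit was tested on simulated data with known changes. For a probe with no array above background in a group, the bound uses the lowest signal well above background on each array. A gene was read from its brightest probe. Named were the 15 highest and 15 lowest called genes without overlap, called list members, the 2 members with the smallest p of lists without calls, a fixed panel and the 5 highest and lowest genes against day 4. MKI67 of the panel had no probe by that name. Genes named outside this rule, and list members given as values, were chosen after their values were seen. The samples, lists and tests were chosen with earlier results of these data known. Deviations from the group mean of same-numbered arrays, which share a slide by the labels, correlated at 0.076 to 0.16, and those of other pairs at -0.11 to 0.057. The number of arrays limits the precision.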

Additional observations from a re-analysis of the deposited data

Results flagged for a closer look

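Control replicate 1 lay apart from the other 3 controls for 3 genes. TNIP3 was at -5.26 there and between -4.05 and -3.84 in the others, THEMIS was at -3.34 against -2.56 to -2.45, and CD3E was at -0.35 against 0.93 to 1.17. These were 3 of 90 gene groups tested. Chance alone sets an array apart in about 1 in 20 independent groups. These genes vary together and many were picked for not overlapping, so that rate does not apply here and no conclusion is drawn. Control replicate 1 also had the lowest 75th percentile of signal (558) and the most outlier spots (140) of the control and day 7 arrays. What sets it apart was not tested. Without control replicate 1, 219 probes were called, 176 of them lower at day 7.

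Several genes differed between day 7 and day 4 after 6.7 Gy by a test of that difference. Lower at day 7 were GDF15 (-2.67), PSD2 (-1.83), GZMK (-2.27), CST7 (-1.33), CD27 (-1.42), MMP9 (-1.27), CD3E (-1.20), LHFPL7 (-3.40), EREG (-3.09) and NR4A2 (-2.48), with CRTAM at least 1.47-fold and BDNF at least 3.27-fold lower, both above background on 0 day 7 arrays. Higher were CA1 (4.95), PCK1 (3.86), GIP (3.201) and RNF152 (2.97), and IYD, above background on 0 day 4 arrays, was at least 9.003-fold higher. With the slide as a block, 16 of these 17 genes were no longer called, but only slides 1 and 2 held arrays of both days.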

How the results depend on the processing

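Against control, the main count was 135 probes. It was 56 with normexp background correction, 41 with spike-in scaling, 67 without a filter on dim probes, 48 with the 2 groups alone, 2 by the methods' t-test after adjustment and 662 without it, 260 at an adjusted p under 0.1, 60 with the slide as a block and 0 with the replicate block, where the 2 groups alone leave few degrees of freedom. Leaving out 1 array gave 25 to 219. Higher calls were 43 of 135, but 54 of 128 with median scaling, 20 of 41 with spike-in scaling, 29 of 48 with the 2 groups alone and 14 of 27 without control replicate 2, so the last pair had more higher than lower calls. Against day 4, the count of 684 became 336 with normexp, 351 with the 2 groups alone, 44 and 1101 by the methods' t-test with and without adjustment, 1767 without a fold threshold, 51 with the slide block and 2 with the replicate block, and 198 to 1135 without 1 array. For these days only slides 1 and 2 held both groups, and same-numbered arrays shared no slide. Higher calls against day 4 were 403 of 684, but 235 of 706 with spike-in scaling and 544 of 1135 without day 4 replicate 4. Between doses it stayed 0 except by the methods' t-test, with 1 adjusted and 67 unadjusted. No named gene reversed its sign while called. Of 34 named genes called against control, 8 kept their call when each array was left out in turn (ANKRD65, TNIP3, PSD2, EDA2R, HBB, SERPINA2, LRMP and ZMAT3), and none kept it under every alternative, the replicate block ending all. The slide block ended 13 of the 34 calls. The scan day block called 98 probes and ended the calls of CXCL8, GZMK, THRSP, MAMU-DQA1, PLA1A and RAB3IP. List medians moved by more than their spread between slides in 15 of 1053 recalculations. The cause of these shifts was not tested. Probes near background in a group give bounds, and 4 animals against 4 limit what can be called.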
